A study of Mus musculus with 15 samples.

Results

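Type I interferon-stimulated genes are the antiviral genes that cells switch on when interferon α or β reaches them. A list of 39 of these genes was followed through naïve mouse brain and 4 syngeneic glioma models, out of 46679 genes in the expression tables. The list was given by gene symbol, and all 39 symbols were found and passed the filter on low counts. RNA was sequenced from 15 C57BL/6 mice, 3 in each of 5 groups: naïve brain, and end-stage intracranial tumors of the lines CT2A, GL261, 005 and Mut3. Tumor cells were implanted at an age of 6 to 8 weeks, and each mouse was sampled on reaching its endpoint, so age at sampling may differ between lines and is not given in the sources used here. Of CT2A, GL261 and 005 cells 100000 were implanted per mouse, and of Mut3 cells 500000, so the lines also differed in the dose of cells. All 4 lines carried a GFP and firefly luciferase transgene, which naïve brain lacked. CT2A and GL261 were first raised in mice with the carcinogen methylcholanthrene, 005 by activated H-ras and AKT in p53+/- mice, and Mut3 by loss of NF1 and p53. Each model was 1 line, so a difference between models cannot be told apart from a difference between these lines, and mice were perfused with PBS before the tissue was taken.

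Interferon α and β bind the receptor pair IFNAR1 and IFNAR2, whose kinases JAK1 and TYK2 pass the signal on by phosphorylation. STAT2 and IRF9 then take part in a complex that binds the interferon-stimulated response element (ISRE) in the promoters of target genes, and the products block viral entry, translation or RNA stability, sense viral nucleic acid, or dampen the signal again. Interferon γ acts through a separate receptor and mainly through a different promoter element, GAS; many genes answer to both. In glioma, both tumor cells and the macrophages, microglia and T cells around them can carry this program.

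The promoters of several members spell out the response element. RefSeq windows from 250 bases before to 50 after the start, on GRCm38.p6, were found for 27 of the 39 members. The element was searched as GAAA, any 2 bases and GAAA again, on either strand. It stood in the windows of 10 of these 27 genes (37.0%), against 936 of all 27025 genes with a window (3.46%). The GAS element, searched as TTC, any 3 bases and GAA, which reads the same in both directions, stood in 4 of the 27 (14.8%), against 8.13% of all genes. A match is a description of these letters and not a measured binding site. The stretches below show these letters in all 10 members with a match, written in the direction of the gene with the matched letters in capitals (overlapping matches run together; TTTC, 2 bases and TTTC is the element on the opposite strand).
Isg15, chr4:156200855-156200904, minus strand: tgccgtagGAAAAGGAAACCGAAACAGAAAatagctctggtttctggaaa
Ifit1, chr19:34640784-34640833, plus strand: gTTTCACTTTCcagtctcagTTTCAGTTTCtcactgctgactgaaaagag
Ifit3, chr19:34583387-34583436, plus strand: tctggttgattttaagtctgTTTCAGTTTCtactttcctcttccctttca
Ifit3b, chr19:34607783-34607832, plus strand: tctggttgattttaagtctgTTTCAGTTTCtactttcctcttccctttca
Oas1a, chr5:120907526-120907575, minus strand: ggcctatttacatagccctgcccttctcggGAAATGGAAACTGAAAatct
Oas3, chr5:120777705-120777754, minus strand: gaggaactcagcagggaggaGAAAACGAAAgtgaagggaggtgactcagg
Rsad2, chr12:26456543-26456592, minus strand: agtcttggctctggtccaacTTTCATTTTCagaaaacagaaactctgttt
Bst2, chr8:71537567-71537616, minus strand: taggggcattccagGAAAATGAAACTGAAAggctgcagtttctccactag
Stat2, chr10:128270256-128270305, plus strand: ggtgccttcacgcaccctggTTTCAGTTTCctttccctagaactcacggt
Trim30a, chr7:104465200-104465249, minus strand: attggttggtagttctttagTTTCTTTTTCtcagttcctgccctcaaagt

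Isg15 carried 3 overlapping matches, and Oas1a and Bst2 carried 2. Ifit1, Ifit3 and Ifit3b each carried 2 separate matches, of which the stretches of Ifit3 and Ifit3b hold 1. The stretches of Ifit3 and its copy Ifit3b were the same in 50 of 50 bases. The 4 IFIT genes lie next to each other on chr19:34550694-34650009, and Rsad2 and Cmpk2 lie side by side on chr12:26442746-26479837.

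Values below are estimated counts divided by the TMM-scaled total of their library, in CPM (normalized CPM), listed for replicates 1, 2 and 3 of each group. A gene is called higher or lower when the Benjamini-Hochberg adjusted p of edgeR's quasi-likelihood test over all 17481 genes tested is under 0.05 and the log2 fold change is at least 1 in size. These p-values measure the spread between mice, 3 in each group, through 1 estimate per gene that all 5 groups share. That estimate is not specific to the groups compared. Log2 fold changes are given with their standard error. Total counts ran from 3105119 to 5161132 in naïve brain and from 5380395 to 13130158 in the tumors, so a naïve value near 0 rests on few counts: 9 members had 3 counts or fewer in at least 1 naïve sample and 2 members in at least 1 Mut3 sample. Mitochondrial genes took 14.97 to 23.97% of counts in naïve brain, 17.8% in 005 replicate 3, and 3.48 to 11.3% in the other 11 tumors. Replicate 3 of 005 also held the most neuronal transcripts of any tumor (summed normalized CPM of 7 markers 3571, against 4405 to 6097 in naïve brain), and the most choroid plexus transcripts of any sample (13620.2). Replicate 2 of 005 held the most leukocyte transcripts (5 markers, 1635). Leukocyte markers summed to 55.9 to 69.2 in naïve brain, 239.9 to 368 in CT2A, 399.8 to 742 in GL261, 386 to 1635 in 005 and 43.3 to 119 in Mut3, and none of the 5 was at 0 in any sample. In bulk tissue, fewer cells of a type and less RNA per cell cannot be told apart.

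Over naïve brain, the members rose broadly in CT2A and GL261, in part in 005 and least in Mut3. The 4 comparisons share the same 3 naïve samples, so their counts are not independent of each other. In CT2A, 36 of 39 members were higher and 0 lower, where 19% of all genes tested were called higher and 20.2% lower; the median log2 fold change of the members was 3.62, and that of all genes -0.04. In GL261 33 were higher and 0 lower (all genes 14.6% and 7.77%; medians 3.73 and -0.08). In 005 23 were higher and 0 lower (all genes 11.6% and 1.05%; medians 2.24 and 0.01). In Mut3 13 were higher and 1 lower (all genes 17.9% and 19.8%; medians 0.92 and 0.11), so its share of members called higher stood nearest to that of all genes. The count for 005 fell to 14 without 005 replicate 2 and to 7 in a fit of only the 6 samples compared, and was 28 without replicate 3. For Mut3 the count of calls was 8 without naïve replicate 1, 7 without naïve replicate 3 and 9 without Mut3 replicate 2 or 3, and it was 5 by limma on log2(TPM + 1).

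**Figure D1:**
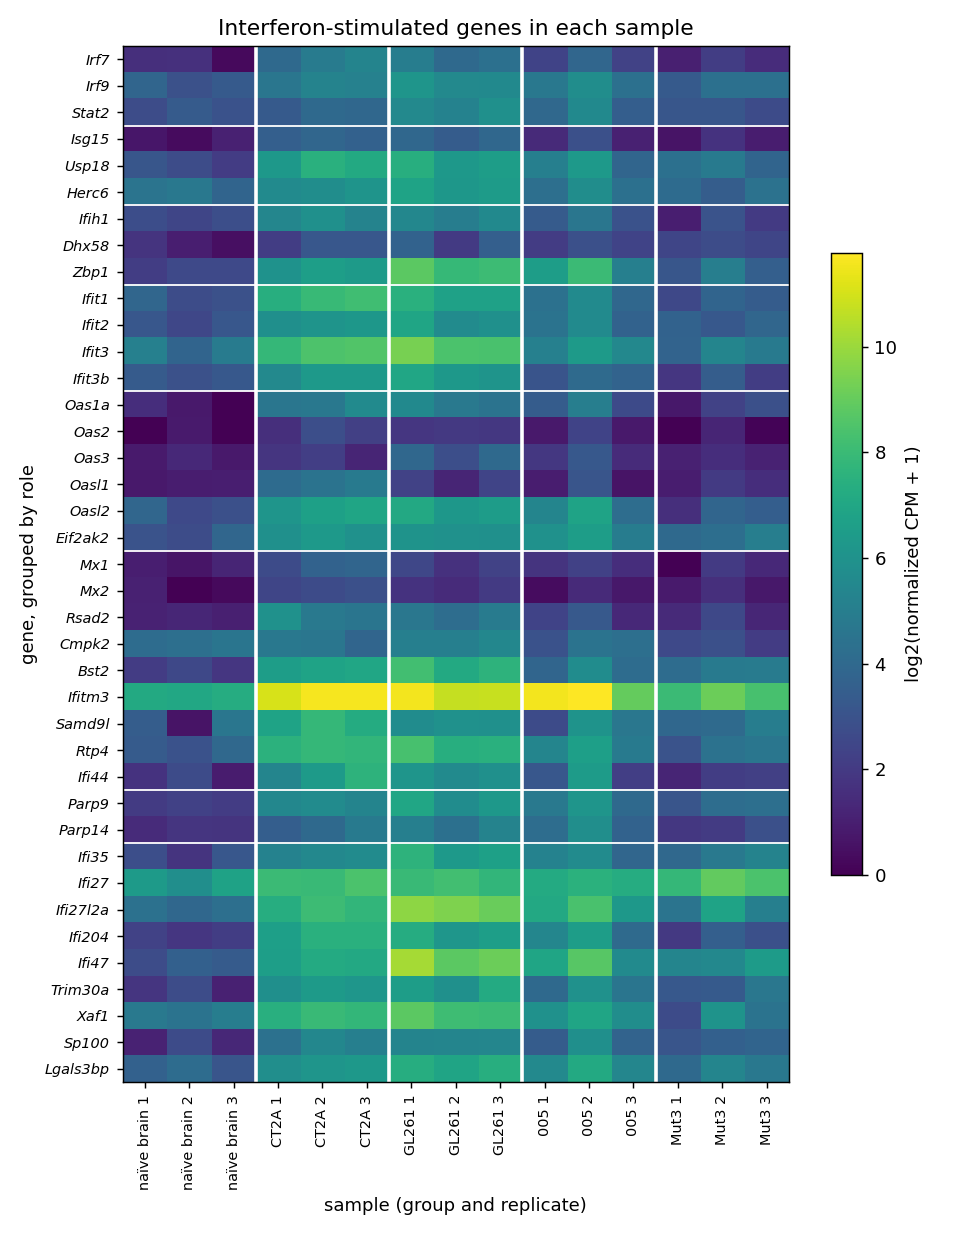
Log2 of normalized CPM + 1 for the 39 interferon-stimulated genes (rows, grouped by role, white lines between roles) in the 15 samples (columns, white lines between groups). The columns of CT2A and GL261 are brighter than naïve brain for most genes, 005 replicate 2 is the brightest of its group for all 39, and Mut3 is close to naïve brain for many genes.

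Of the 39 members, 11 were called higher in all 4 lines, a further 11 in CT2A, GL261 and 005, and 7 in CT2A and GL261. CT2A alone had 5 further members past the test, 2 passed in every line but 005, 1 in GL261 alone and 1 in both GL261 and 005. The share of all genes with each of these patterns is not given here. Passing in one line and not in another is no test of a difference between lines. Of Mx1, Mx2, Oas2, Oasl1 and Samd9l, which passed in CT2A alone, only Oasl1 was also called in CT2A against GL261. Cmpk2, a mitochondrial nucleotide kinase, was the only member higher in none of the 4. By mean normalized CPM among the tumor lines, GL261 was highest for 23 members, CT2A for 15 and Mut3 for 1 (Ifi27), and Mut3 was lowest for 36, with 005 lowest for Dhx58, Ifi27 and Mx2. These orders are of means and carry no test.

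The transcription factors of the pathway differed between the lines. Irf7, which amplifies interferon production and is itself interferon-induced, read 1.96, 2.13 and 0.232 in naïve brain, 15.2, 28.8 and 38.3 in CT2A, 31.02, 15.2 and 19.2 in GL261, 4.23, 13.9 and 4.03 in 005, and 1.06, 3.41 and 1.82 in Mut3. Its tumor values all lay above naïve brain outside Mut3, where the ranges overlapped. The log2 fold change over naïve brain was 4.14 ± 0.72 (adjusted p = 0.00117) in CT2A, 3.80 ± 0.72 (adjusted p = 0.00257) in GL261 and 2.24 ± 0.70 (adjusted p = 0.0483) in 005. Exons of Irf7 overlap those of Phrf1 on the other strand, and whether the counting used strand is not given in the sources used here. Irf9, the DNA-binding partner of STAT2, read 13.3, 6.53 and 9.22 in naïve brain, 23.2, 37.1 and 34.8 in CT2A, 69.6, 45.7 and 46.5 in GL261, 24.9, 54.4 and 19.3 in 005, and 8.97, 19.3 and 19.2 in Mut3. It was called higher in CT2A, GL261 and 005, by 2.48 ± 0.45 (adjusted p = 0.00215) in GL261, and its exons overlap Rnf31 on the same strand. Stat2 read 5.63, 9.52 and 6.93 in naïve brain, 9.20, 15.1 and 14.1 in CT2A, 45.1, 36.7 and 58.1 in GL261, 14.6, 46.7 and 10.5 in 005, and 7.94, 7.75 and 5.38 in Mut3. The lowest CT2A value lay within the naïve range, while the GL261 values were all above both. Stat2 was higher over naïve brain in GL261, by 2.65 ± 0.50 (adjusted p = 0.0026), and in 005, by 1.69 ± 0.49 (adjusted p = 0.0355), whereas in CT2A the difference was 0.79 ± 0.48 (adjusted p = 0.2).

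Isg15, the ubiquitin-like protein that is attached to viral and host proteins, and Usp18, the protease that removes it and restrains the receptor, form the feedback arm with the ligase Herc6. Isg15 read 0.618, 0.280 and 1.09 in naïve brain, 10.8, 13.9 and 11.6 in CT2A, 14.4, 9.89 and 14.2 in GL261, 1.67, 6.34 and 1.14 in 005, and 0.554, 2.33 and 0.925 in Mut3. CT2A and GL261 overlapped each other and lay above every other sample. The change over naïve brain was 4.20 ± 0.76 (adjusted p = 0.00138) in CT2A and 4.29 ± 0.76 (adjusted p = 0.00173) in GL261; in 005 it was 2.19 ± 0.75 (adjusted p = 0.0692) and did not pass. Usp18 read 7.85, 5.75 and 3.21 in naïve brain, 76.2, 179 and 143 in CT2A, 166, 76.7 and 93.7 in GL261, 32.5, 81.4 and 13.3 in 005, and 19.1, 27.0 and 12.9 in Mut3. Every tumor sample lay above every naïve sample. Usp18 was called in all 4 lines, from 1.80 ± 0.60 (adjusted p = 0.0266) in Mut3 to 4.56 ± 0.65 (adjusted p = 3.92e-04) in CT2A. Herc6 was called higher in CT2A and GL261, by 1.47 and 2.18 on the log2 scale.

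Among the sensors, Ifih1 (MDA5) and Dhx58 (LGP2) recognise double-stranded RNA and Zbp1 recognises Z-form nucleic acid and can trigger necroptosis. Ifih1 read 5.77, 4.48 and 6.00 in naïve brain, 41.3, 58.3 and 37.6 in CT2A, 43.0, 31.1 and 47.0 in GL261, 9.34, 23.5 and 6.91 in 005, and 0.997, 7.06 and 2.95 in Mut3. CT2A and GL261 stood apart from the rest; Mut3 replicate 1 was the lowest sample. Ifih1 rose by 3.08 ± 0.59 (adjusted p = 0.00195) in CT2A and 2.90 ± 0.59 (adjusted p = 0.00399) in GL261, and in Mut3 its difference was -0.56 ± 0.58 (adjusted p = 0.463). Zbp1 read 3.39, 5.09 and 4.99 in naïve brain, 62.6, 94.7 and 84.5 in CT2A, 440.3, 232 and 265 in GL261, 93.7, 258 and 33.1 in 005, and 8.00, 31.5 and 10.8 in Mut3. Its tumor values were all above naïve brain, and GL261 was all above CT2A. The change was 6.14 ± 0.76 (adjusted p = 2.13e-04) in GL261, 4.85 ± 0.72 (adjusted p = 0.00182) in 005, 4.18 ± 0.71 (adjusted p = 9.60e-04) in CT2A and 1.92 ± 0.66 (adjusted p = 0.0318) in Mut3. Dhx58, whose exons overlap an antisense gene, was called higher in CT2A, GL261 and Mut3. In 005 its difference was 1.74 ± 0.62 (adjusted p = 0.0786) and did not pass, beside 1.84 ± 0.62 (adjusted p = 0.0295) in Mut3. Between 005 and Mut3 Dhx58 differed by -0.10 ± 0.56 (adjusted p = 0.919).

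The IFIT proteins bind viral RNA ends and block their translation. Ifit1 read 13.9, 5.58 and 6.63 in naïve brain, 167, 243 and 286 in CT2A, 174, 106 and 105 in GL261, 20.02, 48.1 and 14.1 in 005, and 4.80, 13.0 and 9.60 in Mut3. CT2A and GL261 lay far above the other groups, 005 was slightly above naïve brain, and Mut3 overlapped it. Ifit1 rose by 4.72 ± 0.56 (adjusted p = 1.62e-04) in CT2A, 3.87 ± 0.54 (adjusted p = 4.71e-04) in GL261 and 1.64 ± 0.51 (adjusted p = 0.0464) in 005, while in Mut3 the difference was 0.06 ± 0.50 (adjusted p = 0.941). Ifit3 read 33.6, 12.7 and 28.7 in naïve brain, 229, 359 and 383 in CT2A, 647, 343 and 339 in GL261, 34.3, 83.1 and 43.7 in 005, and 12.4, 39.9 and 27.8 in Mut3. All 6 values of CT2A and GL261 were above all 9 others. Its change was 3.69 ± 0.53 (adjusted p = 3.85e-04) in CT2A and 4.14 ± 0.54 (adjusted p = 2.75e-04) in GL261, and in 005 the difference was 1.10 ± 0.48 (adjusted p = 0.138) and did not pass. Ifit3b read 9.46, 6.58 and 8.54 in naïve brain, 45.8, 81.6 and 78.2 in CT2A, 124, 77.3 and 68.2 in GL261, 7.30, 15.8 and 12.3 in 005, and 2.60, 10.1 and 3.43 in Mut3. Here too the 6 values of CT2A and GL261 were above all others. Ifit3 and Ifit3b cannot be fully separated by reads: 61.8% of the 31-base words of Ifit3 transcripts also occur in Ifit3b. Over the family, 4 of 4 genes were called higher in CT2A and in GL261, and 2 of 4 in 005. Mut3 had 0 of 4 (0 also at an unadjusted p under 0.05 by edgeR). Of all genes tested, 17.9% were higher in Mut3, so its 0 of 4 is near that share and is no result about the family. The matching shares were 19% for CT2A, 14.6% for GL261 and 11.6% for 005.

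**Figure D2:**
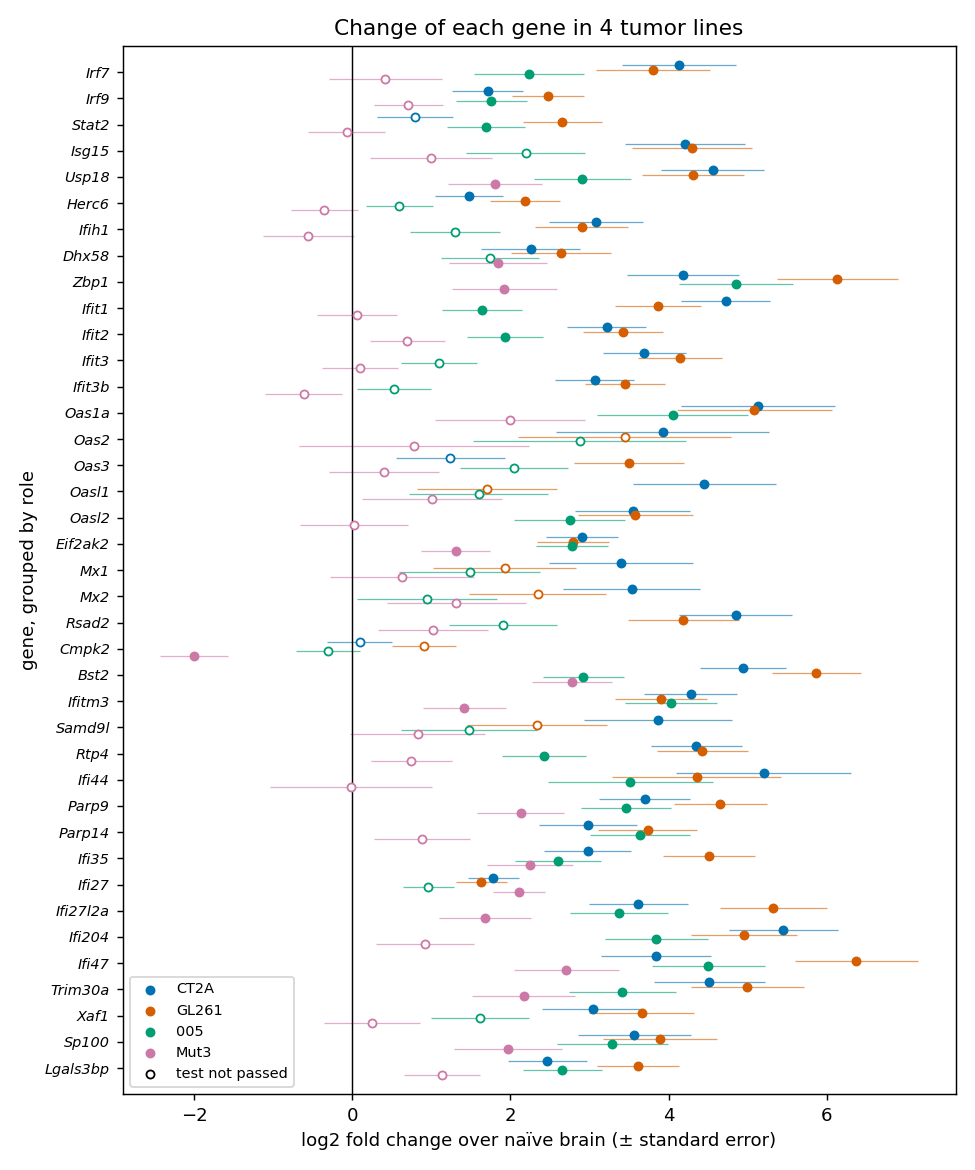
Log2 fold change over naïve brain with its standard error for each of the 39 genes (rows, grouped by role) in CT2A, GL261, 005 and Mut3 (colors); filled points passed the test and open points did not. CT2A and GL261 points mostly lie right of 2, Mut3 points cluster nearer to 0, and Cmpk2 in Mut3 is the filled point left of 0.

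The OAS enzymes make 2′-5′ oligoadenylate, which activates RNase L, and Eif2ak2 (PKR) halts translation on double-stranded RNA. Oas1a read 1.93, 0.745 and 0 in naïve brain, 23.6, 25.4 and 48.6 in CT2A, 47.3, 26.2 and 21.4 in GL261, 9.64, 31.4 and 5.32 in 005, and 0.719, 4.04 and 6.26 in Mut3. CT2A and GL261 overlapped, and naïve brain was at or near 0, with 0 counts in replicate 3. Oas1a rose by 5.13 ± 0.98 (adjusted p = 0.00185) in CT2A, 5.09 ± 0.98 (adjusted p = 0.00283) in GL261 and 4.05 ± 0.95 (adjusted p = 0.0127) in 005, and shares 68.8% of its 31-base words with other genes, chiefly Oas1g. Oasl2 read 13.7, 5.09 and 6.32 in naïve brain, 69.5, 103 and 121 in CT2A, 138, 73.4 and 89.1 in GL261, 39.6, 112 and 17.4 in 005, and 1.97, 13.11 and 10.4 in Mut3. Mut3 overlapped naïve brain, and the other lines lay above it. Oasl1, an OAS-like protein without enzymatic activity that acts on Irf7 translation, read 0.773, 0.947 and 0.996 in naïve brain, 16.1, 21.0 and 26.9 in CT2A, 3.98, 1.34 and 4.25 in GL261, 0.950, 7.52 and 0.539 in 005, and 0.923, 2.97 and 1.95 in Mut3. The 3 CT2A values were higher than all 12 others. Oasl1 was called over naïve brain in CT2A alone, by 4.45 ± 0.90 (adjusted p = 0.00257); its exons overlap the antisense gene Gm13822. Oas3 went the other way: it read 0.779, 1.54 and 0.724 in naïve brain, 2.51, 3.57 and 1.33 in CT2A, 14.2, 6.02 and 15.3 in GL261, 2.75, 8.56 and 1.70 in 005, and 1.10, 1.91 and 1.15 in Mut3, and it was called over naïve brain in GL261 alone, by 3.49 ± 0.70 (adjusted p = 0.00359). Eif2ak2 was called in all 4 lines, by 1.31 in Mut3 and by 2.78 to 2.90 in the other 3.

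Of the other antiviral effectors, the membrane proteins Bst2 (tetherin, which holds budding virus at the surface) and Ifitm3 (which blocks viral fusion) were called in all 4 lines. Bst2 read 3.29, 4.82 and 2.67 in naïve brain, 93.5, 112 and 125 in CT2A, 292, 141 and 196 in GL261, 13.3, 51.5 and 16.8 in 005, and 16.8, 27.9 and 29.2 in Mut3. GL261 lay above CT2A in every sample, and both lay above 005 and Mut3, which overlapped. It rose by 5.87 ± 0.56 (adjusted p = 3.92e-05) in GL261, 4.94 ± 0.54 (adjusted p = 9.67e-05) in CT2A, 2.92 ± 0.51 (adjusted p = 0.00254) in 005 and 2.78 ± 0.51 (adjusted p = 0.00107) in Mut3, where it was the most changed member. Ifitm3 read 142, 134 and 155 in naïve brain, 2150.1, 3134 and 3095 in CT2A, 3040.4, 1691 and 1737 in GL261, 3055, 3493 and 507 in 005, and 261, 563 and 328 in Mut3. Replicate 3 of 005 lay below the other 8 samples of CT2A, GL261 and 005. Ifitm3 rose by 4.28 ± 0.59 (adjusted p = 3.30e-04) in CT2A and 1.42 ± 0.53 (adjusted p = 0.0437) in Mut3. By mean TPM, which corrects for length, it was the most abundant member in naïve brain, CT2A, GL261 and 005. In Mut3 the mean TPM of Ifi27 was higher, at 247 against 234 for Ifitm3. Ifitm3 took 35.6 to 82.9% of the summed TPM of the 39 genes in a sample, and 20.5% of its 31-base words occur in other genes.

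Rsad2 (viperin), which makes a chain-terminating nucleotide, read 1.184, 1.41 and 1.05 in naïve brain, 61.6, 26.2 and 23.1 in CT2A, 24.1, 17.6 and 28.5 in GL261, 4.14, 8.83 and 1.53 in 005, and 1.67, 4.78 and 1.41 in Mut3. CT2A replicate 1 was the highest sample, and the CT2A and GL261 ranges overlapped above all others. Its change was 4.85 ± 0.71 (adjusted p = 4.52e-04) in CT2A and 4.19 ± 0.70 (adjusted p = 0.00126) in GL261. Its neighbour Cmpk2 read 16.6, 18.9 and 22.6 in naïve brain, 25.4, 23.6 and 13.12 in CT2A, 33.2, 32.9 and 43.2 in GL261, 6.79, 21.4 and 19.0 in 005, and 4.99, 6.31 and 3.30 in Mut3. Here the 3 Mut3 values lay below all naïve values, and Cmpk2 was the only member called lower in any line over naïve brain, at -2.002 ± 0.43 (adjusted p = 0.00253) in Mut3. Ifi44, a cytoplasmic protein widely used as a marker of the interferon response, read 2.26, 5.48 and 0.891 in naïve brain, 39.8, 84.5 and 193 in CT2A, 68.6, 48.3 and 59.5 in GL261, 8.13, 87.1 and 3.57 in 005, and 1.35, 3.34 and 3.73 in Mut3. The CT2A replicates were widely spread, and 005 replicate 2 stood far from the other 2 of its group. Ifi44 rose by 5.20 ± 1.10 (adjusted p = 0.00321) in CT2A, 4.36 ± 1.07 (adjusted p = 0.0116) in GL261 and 3.52 ± 1.04 (adjusted p = 0.0391) in 005. Mx1, a gene of the dynamin-like GTPase family, read 0.972, 0.595 and 1.35 in naïve brain, 5.48, 11.9 and 13.13 in CT2A, 4.71, 2.20 and 4.05 in GL261, 2.44, 3.80 and 1.90 in 005, and 0, 2.96 and 1.59 in Mut3. Its CT2A values lay above all other samples, and it was called over naïve brain in CT2A alone, by 3.40 ± 0.91 (adjusted p = 0.00979), as were Mx2 (annotated as a polymorphic pseudogene) and Samd9l.

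All 9 IFI and nuclear body genes rose in both CT2A and GL261, while 005 had 7 of them called and Mut3 6. Ifi204, a p200 family sensor of DNA, read 4.05, 2.68 and 3.43 in naïve brain, 99.5, 178 and 179 in CT2A, 157, 71.4 and 95.0 in GL261, 40.8, 93.5 and 15.6 in 005, and 2.83, 10.7 and 6.26 in Mut3. It was the most changed member in CT2A, by 5.45 ± 0.69 (adjusted p = 2.10e-04), while in Mut3 the difference was 0.92 ± 0.62 (adjusted p = 0.249); 34.0% of its 31-base words occur in other genes of the family, chiefly Ifi211. Ifi47, a GTPase of the immunity-related family that interferon γ also induces, read 5.56, 11.4 and 9.26 in naïve brain, 95.2, 145 and 135 in CT2A, 1171, 439.7 and 560.3 in GL261, 119, 425 and 49.2 in 005, and 40.4, 43.7 and 86.2 in Mut3. GL261 was above every other sample, and Mut3 and CT2A did not overlap. It was the most changed member in GL261, by 6.38 ± 0.78 (adjusted p = 1.78e-04), and rose by 4.50 ± 0.71 (adjusted p = 0.00189) in 005, 3.84 ± 0.69 (adjusted p = 0.00139) in CT2A and 2.71 ± 0.67 (adjusted p = 0.00565) in Mut3; its exons overlap those of Olfr56.

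Ifi27l2a read 19.7, 14.1 and 18.6 in naïve brain, 159, 271 and 214 in CT2A, 859.6, 709.8 and 535 in GL261, 136, 329.7 and 77.0 in 005, and 21.8, 114 and 32.6 in Mut3. GL261 lay above all other samples, and every tumor value lay above naïve brain. Its change was 5.32 ± 0.68 (adjusted p = 2.48e-04) in GL261 and 3.62 ± 0.63 (adjusted p = 0.0011) in CT2A. Ifi27, the mitochondrial protein coded beside it, read 84.2, 54.8 and 108 in naïve brain, 259, 252 and 341 in CT2A, 254, 299 and 213 in GL261, 145, 183 and 154 in 005, and 227, 496 and 340.4 in Mut3. Unlike the other members, it had its highest mean in Mut3, where it rose by 2.10 ± 0.33 (adjusted p = 5.24e-04). In 005 the difference was 0.96 ± 0.32 (adjusted p = 0.0608). Lgals3bp, a secreted galectin-binding glycoprotein, read 11.7, 16.8 and 7.497 in naïve brain, 54.6, 69.8 and 75.5 in CT2A, 159, 118 and 167 in GL261, 45.2, 141 and 41.2 in 005, and 15.1, 39.3 and 25.1 in Mut3. It was called higher in GL261, by 3.62 ± 0.52 (adjusted p = 4.87e-04), in 005 and in CT2A, and Mut3 overlapped naïve brain. The ADP-ribosyltransferase genes Parp9 and Parp14 rose in CT2A, GL261 and 005, and Parp9 also in Mut3.

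**Figure D3:**
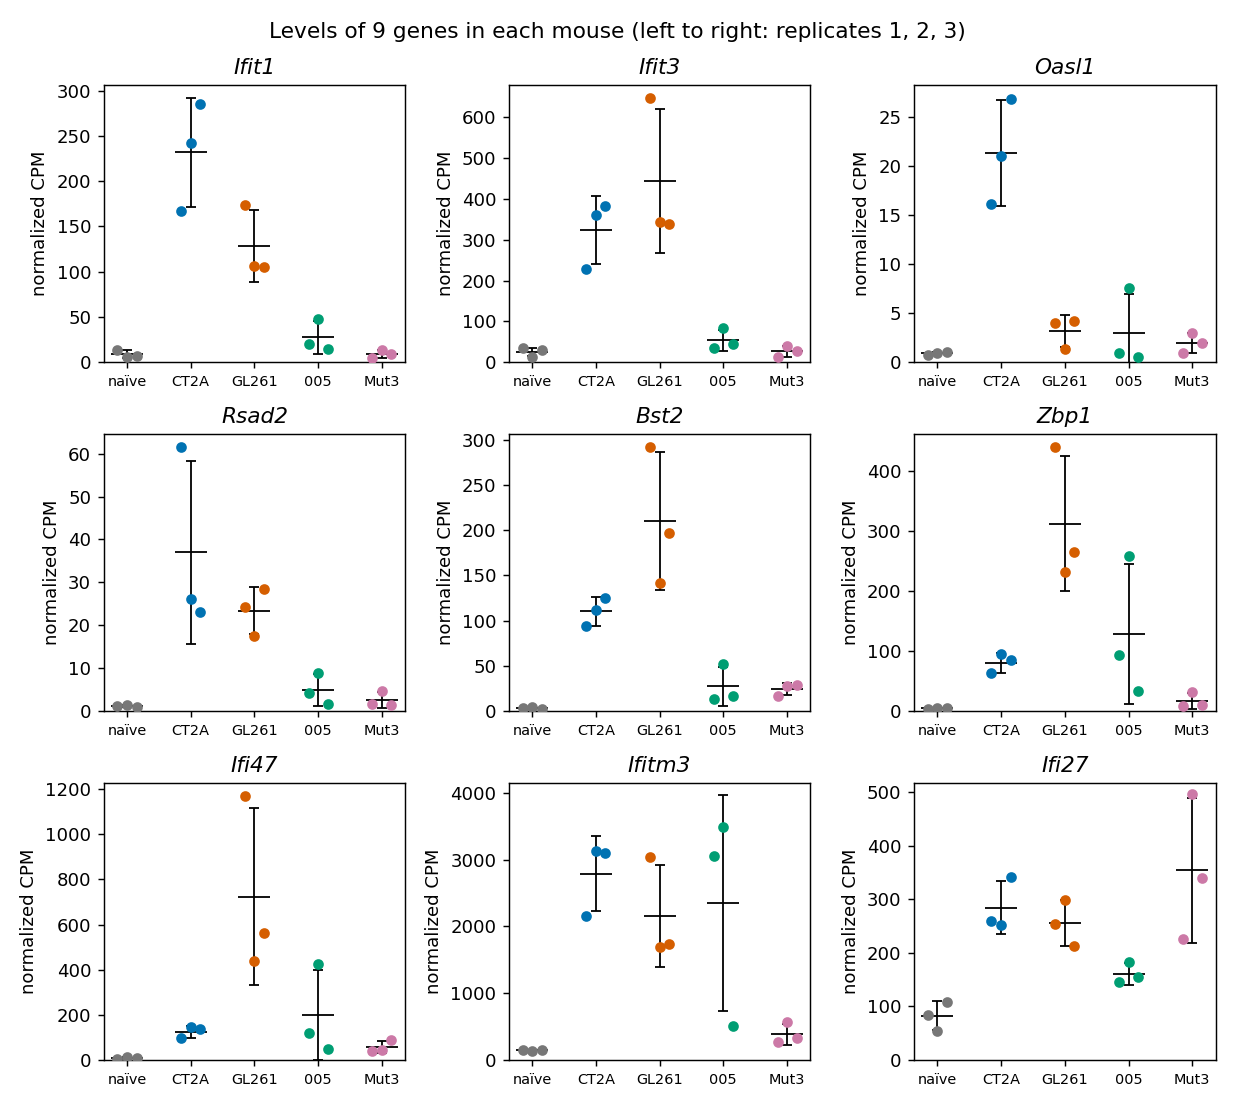
Normalized CPM (y axis, linear, from 0) of 9 genes in each mouse by group; points are mice in the order of replicates 1, 2 and 3, horizontal bars the mean and whiskers the standard deviation of 3 mice. Ifit1, Ifit3, Rsad2 and Bst2 are high in CT2A and GL261, Oasl1 in CT2A, Zbp1 and Ifi47 in GL261, and Ifi27 has its highest mean in Mut3.

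CT2A and GL261, both induced by the same carcinogen but placed on opposite sides of the immune-active and inert division, were called different in few members. Against GL261, 1 member was higher in CT2A and 3 were lower (all genes 4.15% and 3.62%), with a median log2 fold change of -0.21 for the members and -0.13 for all genes. Oasl1 was higher in CT2A, by 2.75 ± 0.79 (adjusted p = 0.0461). Lower in CT2A were Ifi47 at -2.53 ± 0.64 (adjusted p = 0.0261), Oas3 at -2.26 ± 0.63 (adjusted p = 0.0398) and Stat2 at -1.86 ± 0.48 (adjusted p = 0.0281). For each of these 4 genes the 3 CT2A and 3 GL261 values did not overlap. Values for the IFIT genes were 0.85 ± 0.48 for Ifit1 and -0.45 ± 0.47 for Ifit3 on the log2 scale, and neither passed. Without any 1 CT2A sample, or without GL261 replicate 1 or 3, edgeR called 0 members (7 to 8 at an unadjusted p under 0.05), against 7 calls by DESeq2 and 9 when only these 6 samples were fitted. Leukocyte markers summed to less in CT2A than in GL261 in every sample, and their part in these differences was not tested.

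In 005, 3 of the 4 IFIT genes (Ifit1, Ifit3 and Ifit3b) and Bst2 were lower than in CT2A and GL261. Against 005, 6 members were higher in CT2A and 0 lower (all genes 2.12% and 1.99%; medians 1.08 and -0.23), and 4 were higher in GL261 and 0 lower (all genes 1.73% and 0.887%; medians 1.28 and -0.15). Both comparisons use the same 3 samples of 005. Ifit1 was 3.08 ± 0.52 (adjusted p = 0.0053) higher in CT2A and 2.23 ± 0.50 (adjusted p = 0.0273) higher in GL261. Ifit3 was 2.59 ± 0.50 (adjusted p = 0.0112) higher in CT2A and 3.05 ± 0.51 (adjusted p = 0.00422) higher in GL261. Bst2 differed by 2.02 ± 0.46 (adjusted p = 0.0273) and 2.95 ± 0.48 (adjusted p = 0.00363), and Ifit3b by 2.54 ± 0.48 and 2.93 ± 0.49. Ifit2 did not pass, with differences of 1.28 ± 0.46 (adjusted p = 0.114) and 1.49 ± 0.46 (adjusted p = 0.118). Rsad2 was called higher than in 005 in CT2A, by 2.95 ± 0.61 (adjusted p = 0.017), and in GL261 its difference was 2.29 ± 0.60 (adjusted p = 0.0609). Rtp4, a receptor chaperone, was called in CT2A at 1.92 ± 0.51 (adjusted p = 0.0486), and in GL261 its difference was 1.999 ± 0.51 (adjusted p = 0.0533).

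All 3 samples of 005 held more leukocyte transcripts than any CT2A sample. Replicate 2 of 005 was the highest of its group for 39 of 39 members and for 14 of 14 interferon-γ induced GTPase genes, and its summed leukocyte markers exceeded those of every CT2A and GL261 sample. In that sample Ifit1 at 48.1, Ifit3 at 83.1 and Bst2 at 51.5 normalized CPM lay below every CT2A and GL261 sample. The part of the leukocyte transcripts in these differences was not tested. Without 005 replicate 2, 15 members were called higher in CT2A and 16 in GL261. DESeq2 called 14 and 12, and a fit of only the 6 samples compared called 1 and 2. For GL261 against 005 the count was 10 without a filter on low counts and 8 by limma on log2(TPM + 1).

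**Figure D4:**
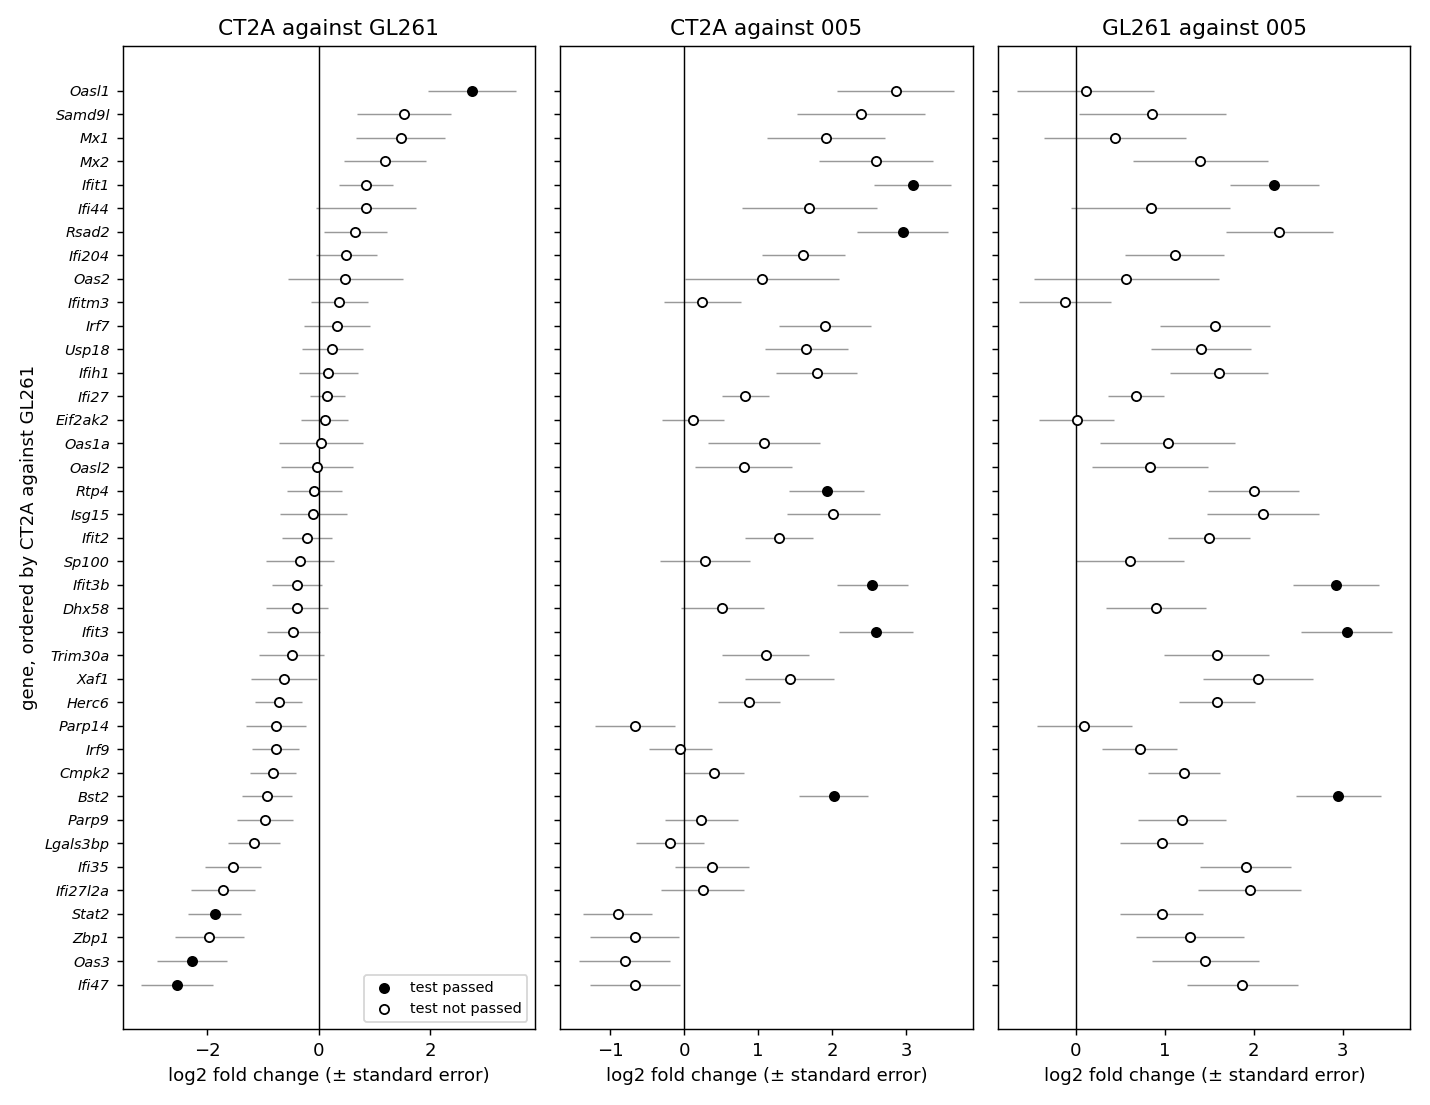
Log2 fold change with its standard error of the 39 genes for CT2A against GL261, CT2A against 005 and GL261 against 005; all panels list genes in the order of the left panel, and filled points passed the test. In the left panel values lie on both sides of 0, and in the middle and right panels Ifit1, Ifit3, Ifit3b and Bst2 are filled points at 2 or above.

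Mut3 had the lowest levels of the tumors for most members. CT2A was called higher in 27 members and lower in 0 (all genes 6.61% and 6.15%; medians 2.52 and 0.02), led by Ifi44 at 5.22 ± 1.08 (adjusted p = 0.00568) and Ifit1 at 4.67 ± 0.56 (adjusted p = 1.56e-04). GL261 was called higher in 32 and lower in 0 (all genes 11.1% and 6.1%; medians 2.85 and 0.04), led by Ifi44 at 4.37 ± 1.04 (adjusted p = 0.0125) and Zbp1 at 4.22 ± 0.68 (adjusted p = 0.00151). Between 005 and Mut3 the difference was smaller: 14 were higher in 005 and 1 lower (all genes 14% and 5.76%; medians 1.37 and 0.10). Ifi44 differed there by 3.53 ± 1.01 (adjusted p = 0.0241) and Zbp1 by 2.93 ± 0.65 (adjusted p = 0.00767). Ifi27 was the gene lower in 005, at -1.14 ± 0.32 (adjusted p = 0.0218), and its ranges in the 2 lines did not overlap. The calls between 005 and Mut3 numbered 6 without 005 replicate 2, 22 without 005 replicate 3, 7 without Mut3 replicate 1 and 8 without Mut3 replicate 3, and a fit of these 6 samples alone by edgeR called 0 (20 at an unadjusted p under 0.05), while limma on log2(TPM + 1) called 8. Leukocyte markers were lower in Mut3 than in the other lines in every sample, and their part in these differences was not tested.

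The study placed GL261 and 005 as immune-active and CT2A and Mut3 as inert. It drew this division from its RNA sequencing of these tumors, by enrichment of immune pathways. The comparison of the pairs is therefore a description and no independent support for the division. With both pairs averaged, 12 of 39 members were higher in the active pair and 0 lower (all genes 12.6% and 4.29%; medians 0.84 and 0.10). Zbp1 differed by 2.44 ± 0.45 (adjusted p = 0.00308) and Ifi47 by 2.17 ± 0.45 (adjusted p = 0.00573). The other 10 were Stat2, Oas3, Oasl2, Parp9, Parp14, Cmpk2, Ifitm3, Ifi27l2a, Ifi204 and Lgals3bp. By limma on log2(TPM + 1) 7 members were called, and Stat2, Oas3, Parp9, Parp14, Cmpk2 and Ifi204 no longer passed. None of the 4 IFIT genes passed (3 of 4 at an unadjusted p under 0.05 by edgeR), and Ifit1 stood at 0.37 ± 0.34 (adjusted p = 0.465). All 5 leukocyte markers were higher in the active pair, and their part in the result was not tested.

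The 14 interferon-γ induced GTPase genes, the GBP and IRG families that attack pathogen vacuoles, were set beside the members as a neighbouring program. All 14 were higher over naïve brain in GL261 and in 005, 13 in CT2A and 7 in Mut3. Of all genes 14.6% were higher in GL261, 11.6% in 005, 19% in CT2A and 17.9% in Mut3. Median log2 fold changes of the 14 were 5.35, 4.70, 3.38 and 2.12 in the order GL261, 005, CT2A and Mut3. Summed normalized CPM of the 14 was 125 to 159 in naïve brain, 1346 to 1636 in CT2A, 4772 to 10019 in GL261, 809 to 7846 in 005 and 262 to 1338 in Mut3. The IFIT genes summed to 29.5 to 65.3, 499 to 821, 570.5 to 1065, 82.1 to 195 and 31.9 to 71.5 in the order naïve brain, CT2A, GL261, 005 and Mut3. The IFIT sum divided by the GTPase sum was 0.371 to 0.502 in CT2A and 0.236 to 0.439 in naïve brain, against 0.0911 to 0.121 in GL261, 0.0248 to 0.101 in 005 and 0.0408 to 0.132 in Mut3. The 3 CT2A ratios lay above those of all 9 other tumors. In the active pair against the inert pair 13 of 14 GTPase genes and 0 of 4 IFIT genes were higher. Among all genes 12.6% were higher, so the 0 of 4 is near that share and is no result about the IFIT genes. The difference between these lists was not tested.

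**Figure D5:**
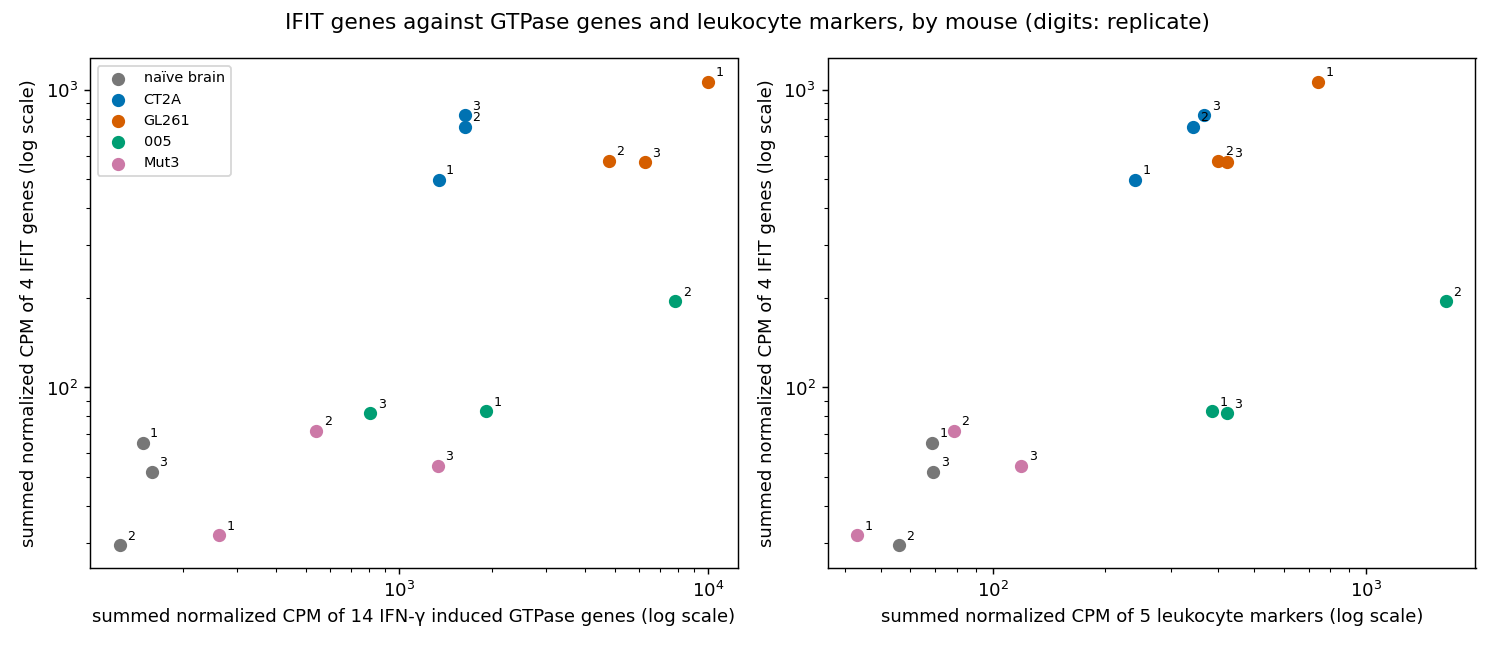
Summed normalized CPM of the 4 IFIT genes (y axis, log scale) against that of the 14 interferon-γ induced GTPase genes (left, log scale) and of 5 leukocyte markers (right, log scale); each point is a mouse, with its replicate number. CT2A lies at high IFIT and moderate GTPase and leukocyte values, 005 replicate 2 at high GTPase and leukocyte values with an IFIT sum of 195, and Mut3 near naïve brain in the right panel.

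Replicates within a line did not rank the programs alike in Mut3. Mut3 replicate 2 was the highest of its group for 24 of 39 members, and Mut3 replicate 3 for 13 of 14 GTPase genes.

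Transcripts of the interferons themselves were scarce. Of 20 ligand genes, 15 had 0 counts in all samples and 1, Ifng, passed the filter. Ifnb1, the gene of interferon β, had 7.01, 10.01 and 6.10 estimated counts in CT2A, 0, 12.7 and 1.00 in GL261, 0 in each 005 sample, 3.94, 0 and 5.92 in Mut3, and 0, 0.938 and 0 in naïve brain. The 3 CT2A samples were the only group with more than 3 counts in each sample, and at these counts no test was made. Ifng, made by T and NK cells, had 11.98, 79.0 and 24.3 counts in 005, 15.4, 1.00 and 16.6 in GL261, 7.97, 1.95 and 4.88 in CT2A and at most 2.90 in a Mut3 or naïve sample. It was higher in 005 than in naïve brain, by 4.54 ± 1.34 (adjusted p = 0.0382), and than in Mut3, by 4.67 ± 1.22 (adjusted p = 0.017). In CT2A its difference from naïve brain was 1.90 ± 1.41 (adjusted p = 0.291).

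The genes of the type I interferon receptor passed the test in few comparisons. Ifnar1 read 9.71, 8.98 and 9.80 in naïve brain, 9.44, 12.3 and 13.2 in CT2A, 10.3, 11.2 and 12.8 in GL261, 13.5, 25.0 and 13.09 in 005, and 14.8, 12.6 and 13.3 in Mut3. No line passed the test, and the estimates over naïve brain ran from 0.27 in GL261 to 0.85 in 005. Ifnar2 was called in 005, by 1.20 ± 0.35 (adjusted p = 0.039). Of 16 receptor and signalling genes tested out of 17, 7 rose in 005, 6 in GL261, 5 in CT2A and 2 in Mut3, where 2 were lower, Ifngr2 at -1.19 and the kinase gene Jak1 at -1.45. In Mut3 both counts are below the shares over all genes (17.9% higher and 19.8% lower) and are no result about the list. The counts higher in 005, GL261 and CT2A stand beside 11.6%, 14.6% and 19% of all genes. These 2 genes, and Socs1, Sp140, Ifi213 and Ifitm1 named further on, were chosen after their values were seen. Socs1, the feedback inhibitor of the JAK kinases, rose by 3.27 in CT2A, 4.64 in GL261 and 4.45 in 005.

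Nucleic acid sensors other than the members rose in part. Of 14 tested out of 15, 11 were higher in GL261, 8 in 005, 7 in CT2A and 5 in Mut3, and 1, Cgas, was lower in Mut3. Of all genes 14.6% were higher in GL261, 11.6% in 005, 19% in CT2A and 17.9% in Mut3. In Mut3 19.8% of all genes were lower, so the 1 lower gene is no result about the list. Tmem173 (STING), the adaptor of cytosolic DNA sensing, read 5.54, 2.79 and 4.26 in naïve brain, 42.5, 68.0 and 95.7 in CT2A, 79.8, 39.2 and 42.9 in GL261, 42.2, 79.4 and 20.3 in 005, and 3.25, 6.64 and 8.25 in Mut3. Mut3 overlapped naïve brain, and the other 3 lines lay above both. It rose by 4.02 ± 0.57 (adjusted p = 3.84e-04) in CT2A and 3.48 ± 0.56 (adjusted p = 0.00198) in 005, and in Mut3 its difference was 0.53 ± 0.54 (adjusted p = 0.453). Cgas, the enzyme upstream of it, read 20.4, 27.7 and 15.3 in naïve brain, 18.4, 19.1 and 18.3 in CT2A, 13.9, 19.4 and 24.5 in GL261, 17.0, 15.6 and 23.0 in 005, and 8.98, 11.8 and 10.5 in Mut3, and was lower in Mut3 at -1.01 ± 0.31 (adjusted p = 0.0192). Ddx58 (RIG-I) rose in all 4 lines, from 1.70 ± 0.43 (adjusted p = 0.00636) in Mut3 to 2.70 ± 0.44 (adjusted p = 7.64e-04) in CT2A.

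A further 35 interferon-stimulated genes outside the 39 gave 30 calls each in CT2A and GL261, 25 for 005 and 11 for Mut3, all higher, with median log2 fold changes in the order CT2A, GL261, 005 and Mut3 of 3.54, 4.15, 3.33 and 1.49. Among all genes, calls higher over naïve brain made up 19% for CT2A and 14.6% for GL261. The share was 11.6% for 005, while Mut3 had 17.9%. Between CT2A and GL261, Sp140 and Ifi213 were lower in CT2A, and 0 were higher (all genes 3.62% and 4.15%). Ifitm1, a relative of Ifitm3, was lower in GL261 than in 005, at -2.33 on the log2 scale. Ifi213 rose by 5.52 in Mut3, more than any of the 39 members in that line.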

How the data were processed

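Bulk RNA-seq was made from 15 mouse brain or tumor samples, 3 mice in each of 5 groups taken from the labels. The authors deposited estimated counts per gene, which are not whole, and TPM values, which also correct for gene length. The submitters' processing notes name mm10, Salmon and DESeq2 1.18.1, and the study's methods name STAR, Picard and RNA-SeQC. Which tool made which table, the annotation release and the strand setting are not given in the sources used here. No batch is given in the labels.

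Here the estimated counts were rounded and tested with edgeR 4.0.16 in R 4.3.3 (limma 3.58.1): filterByExpr by group, TMM factors, and glmQLFit with glmQLFTest on all 15 samples with a mean per group, with Benjamini-Hochberg adjustment over 17481 genes in each of 11 comparisons. Values are printed as normalized CPM, since the deposited TPM is shifted between groups: over 13580 genes the median log2 ratio of CT2A to naïve brain was -0.93 in TPM and -0.02 in normalized counts; GL261 gave -0.83 and -0.09, 005 gave -0.53 and 0.01, and Mut3 gave -0.67 and 0.09. The 50 genes with the most TPM took 47.4 to 50.1% of it in naïve brain and 49.9 to 58.9% in the tumors. TPM was used only to set the abundance and share of Ifitm3 beside the other members, and in an alternative test. Symbols were mapped with GENCODE M21 (GRCm38) and promoter windows taken from RefSeq.

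The members and lists were chosen with earlier results of these data known. Values of every sample are printed for 19 examples by role and for the 2 called members with the largest change in each direction of each comparison. On simulated counts for CT2A against naïve brain (17481 genes, 200 changed), 26% of genes changed 4-fold and 69% of those changed 8-fold were recovered, with 5 false calls among 100. Alternatives were DESeq2 1.42.0, limma on log2(TPM + 1), library-size scaling, no filter on low counts, no fold threshold, fits of only the samples compared, a replicate block, and leaving out each sample. No gene set was tested.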

Additional observations from a re-analysis of the deposited data

Results flagged for a closer look

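Between every pair of tumor lines some members were called different by edgeR's test of the difference itself, in the fit of all samples. In some other fits, given below, no member was called for CT2A against GL261 or for 005 against Mut3. The count of the 39 members was 4 for CT2A against GL261, 6 for CT2A against 005, 27 for CT2A against Mut3, 4 for GL261 against 005, 32 for GL261 against Mut3 and 15 for 005 against Mut3. Among all genes tested 4.15% were higher and 3.62% lower in CT2A than in GL261, so 4 of 39 members is near that background, while the 32 of 39 of GL261 against Mut3 stand beside 11.1% higher and 6.1% lower. The 6 of CT2A against 005 stand beside 2.12% higher and 1.99% lower, and the 4 of GL261 against 005 beside 1.73% and 0.887%. The 27 of CT2A against Mut3 stand beside 6.61% and 6.15%, and the 15 of 005 against Mut3 beside 14% and 5.76%. Ifi27 is the member whose call runs against the others in Mut3, being lower in 005 than in Mut3.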

How the results depend on the processing

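Counts are of members called, of 39, against the values of the report. DESeq2 gave 7 for CT2A against GL261, 14 for CT2A against 005 and 12 for GL261 against 005. Limma on log2(TPM + 1) gave 5 for Mut3 against naïve brain, 8 for GL261 against 005, 8 for 005 against Mut3 and 7 for the active against the inert pair. Without a filter on low counts GL261 against 005 gave 10. Fits of only the samples compared gave 7 for 005 against naïve brain, 9 for CT2A against GL261, 1 for CT2A against 005, 2 for GL261 against 005 and 0 for 005 against Mut3 (20 at an unadjusted p under 0.05 by edgeR; 26 by DESeq2). The cause of these shifts was not tested.

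Leaving out 1 sample at a time gave 34 to 36 for CT2A, 33 to 34 for GL261, 14 to 28 for 005 and 7 to 16 for Mut3 against naïve brain. It gave 0 to 3 for CT2A against GL261, 4 to 15 for CT2A against 005, 19 to 27 for CT2A against Mut3, 3 to 16 for GL261 against 005, 27 to 31 for GL261 against Mut3, 6 to 22 for 005 against Mut3 and 8 to 15 for the active against the inert pair. The lowest count for 005 against naïve brain, and both highest counts against 005, came without 005 replicate 2. For CT2A against GL261 the 0 came without any CT2A replicate and without GL261 replicate 1 or 3, with 7 to 8 members at an unadjusted p under 0.05 by edgeR.

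The replicate numbers did not pair the samples: deviations from the group means correlated at -0.33 to 0.26 for the same number (median -0.02 over 30 pairs) and at a median of 0.01 for different numbers. With the replicate block the counts over naïve brain were 36 for CT2A, 34 for GL261, 18 for 005 and 12 for Mut3. Between tumors the block gave 3 for CT2A against GL261, 5 for CT2A against 005, 28 for CT2A against Mut3, 4 for GL261 against 005, 33 for GL261 against Mut3, 12 for 005 against Mut3 and 8 for the active against the inert pair.

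Library-size scaling ended the call of Oasl1 in CT2A against GL261, and moved the median of all genes by -0.12 to -0.20 in the CT2A comparisons. Among the values of single genes under all alternatives, 2206 kept their direction and side of the threshold, 338 kept their direction but no longer passed, and 0 reversed after having been called. Depth limits the members with few counts in naïve brain, where folds rest on 3 counts or fewer in some samples.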
